A study of Mus musculus with 15 samples.

Results

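The collagen genes were taken as every gene in the count files whose mouse symbol has the form Col, a number, a, and a number, and which the annotation marks as protein-coding. This rule, which used no measured value, found 44 of the 55421 genes listed, and 42 of them were among the 18979 genes that passed the filters and were tested. By the structure of the protein they were placed in 4 classes: 11 fibrillar collagens, 8 basement membrane collagens, 3 network-forming collagens and 22 other collagens. The other collagens comprised 6 beaded filament chains, 9 fibril-associated collagens, 4 transmembrane collagens and 3 that were anchoring or unclassed.

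Posterior eyecups with the neural retina removed, which hold the retinal pigment epithelium (RPE), choroid and sclera, came from C57BL/6J mice of both sexes at 2.5 months of age. There were 4 wild-type (WT) mice, 6 mice heterozygous for the FUN025 mutation of Tmem135 (FUN025/+) and 5 homozygous mice (FUN025/FUN025), with the eyecups of 1 mouse in each poly(A) library. The mutation is in the germline and so in every tissue, the sex of a library is not labelled, and gene-level counts do not check the mutation itself. Beside RPE, fibroblast, endothelial and melanocyte markers, the libraries held muscle, rod photoreceptor, cornea and conjunctiva, and lens markers, so the tissue was mixed and in such bulk samples fewer cells of a type and less RNA per cell cannot be told apart. Total counts were 18094977 to 20029919 in WT, 10903183 to 13456349 in FUN025/+ and 11053535 to 15038383 in FUN025/FUN025 libraries. Every WT library was deeper than every mutant library, so depth and genotype cannot be told apart, although fold changes are also given for libraries thinned to 1 common total where named. WT replicate 2 stood apart in its rod photoreceptor markers, which summed to 2081 CPM (counts of a gene per 1e6 counts of the scaled library) against 79.7 to 637 CPM in the other 14 libraries, and results are given without it where it changed a call.

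Collagens are trimers of alpha chains wound into a triple helix, built from chains of 1 gene in some types and of several genes in others, such as types I, IV and VIII. Fibrillar collagens, mainly types I, III and V, give the sclera its strength. Basement membrane collagens form sheets: type IV networks underlie the RPE and surround the choroidal capillaries, with both layers contributing to Bruch's membrane between them, while types XV and XVIII link basement membranes to the tissue beside them. Type VIII collagen, built from Col8a1 and Col8a2, forms hexagonal lattices and is found in Bruch's membrane and in Descemet's membrane of the cornea. Human genetic studies have linked the COL8A1 region with age-related macular degeneration.

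Promoter windows are shown for both type VIII chains, since 1 chain changed and its partner did not pass the test, and for the 2 type IV chains that fell together. They come from RefSeq on GRCm38.p6, run from 250 bases before to 50 bases after the annotated start, and are written 5′ to 3′ on the strand of the gene. Capitals mark 3 short motifs searched on both strands, the TATA box (TATAAA), the CCAAT box (CCAAT) and the GC box (GGGCGG), whose letters can overlap one another where GC boxes are adjacent.
Col8a1, chr16:57754688-57754987, minus strand: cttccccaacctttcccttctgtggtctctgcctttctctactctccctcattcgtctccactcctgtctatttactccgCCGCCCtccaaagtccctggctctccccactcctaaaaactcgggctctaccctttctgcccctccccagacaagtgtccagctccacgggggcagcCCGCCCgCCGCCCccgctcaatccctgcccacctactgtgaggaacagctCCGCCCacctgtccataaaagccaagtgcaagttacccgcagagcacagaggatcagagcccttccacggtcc
Col8a2, chr4:126286544-126286843, plus strand: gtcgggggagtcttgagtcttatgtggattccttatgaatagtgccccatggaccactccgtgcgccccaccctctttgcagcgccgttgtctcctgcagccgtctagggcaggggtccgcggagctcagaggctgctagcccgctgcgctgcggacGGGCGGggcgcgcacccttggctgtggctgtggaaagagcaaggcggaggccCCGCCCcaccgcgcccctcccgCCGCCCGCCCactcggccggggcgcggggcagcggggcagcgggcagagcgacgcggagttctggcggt
Col4a1, chr8:11312777-11313076, minus strand: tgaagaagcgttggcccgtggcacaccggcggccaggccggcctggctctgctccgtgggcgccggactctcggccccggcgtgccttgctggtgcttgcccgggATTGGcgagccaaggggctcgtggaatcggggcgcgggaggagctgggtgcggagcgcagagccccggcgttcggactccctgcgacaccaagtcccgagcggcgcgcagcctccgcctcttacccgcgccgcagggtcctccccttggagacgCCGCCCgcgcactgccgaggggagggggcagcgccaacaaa
Col4a2, chr8:11312555-11312854, plus strand: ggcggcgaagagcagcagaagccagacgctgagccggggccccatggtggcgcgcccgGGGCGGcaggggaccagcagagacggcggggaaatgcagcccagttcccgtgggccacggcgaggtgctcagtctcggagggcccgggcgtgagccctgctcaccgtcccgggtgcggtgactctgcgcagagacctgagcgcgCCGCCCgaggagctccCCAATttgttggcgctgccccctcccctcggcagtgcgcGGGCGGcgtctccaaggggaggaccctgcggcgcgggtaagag

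The Col8a1 and Col8a2 windows each held 4 GC boxes, with no CCAAT or TATA box of these letters. The Col4a1 and Col4a2 windows each held 1 CCAAT box, with 1 GC box in the Col4a1 window and 3 in the Col4a2 window. Col4a1 and Col4a2 lie head to head on chromosome 8: their annotated starts are 21 bases apart and their windows share 78 bases read on opposite strands, so a motif there is marked in both. Of all 32851 RefSeq windows of this length, 35.7% held a GC box, 37.4% a CCAAT box and 13.6% a TATA box. Of the 38 windows found for 35 of the 44 collagen genes, 60.5% held a GC box, 34.2% a CCAAT box and 13.2% a TATA box. These matches describe letters and were not tested as binding sites.

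All collagens together took 0.753% to 0.968% of the counts of a library. Their sum was 8519 ± 944 CPM (SD, n = 4) in WT, 8848 ± 476 CPM (n = 6) in FUN025/+ and 8412 ± 568 CPM (n = 5) in FUN025/FUN025 eyecups, and the ranges of the 3 genotypes overlapped. Levels of different genes are compared per length, as CPM per kb of exon. On this scale the highest collagens over all libraries were Col8a2 (222), Col1a1 (130), Col8a1 (123), Col9a3 (123) and Col1a2 (112). A further 31 collagens had a mean between 1 and 100, and 8 were under 1, among them Col6a4 and Col19a1, which were not tested. Col6a4 had at most 8 counts and Col19a1 at most 10 counts in any library. A count of 3, the least taken as measurable, was worth 0.15 to 0.28 CPM depending on the library; this covers the error of counting alone.

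**Figure D1:**
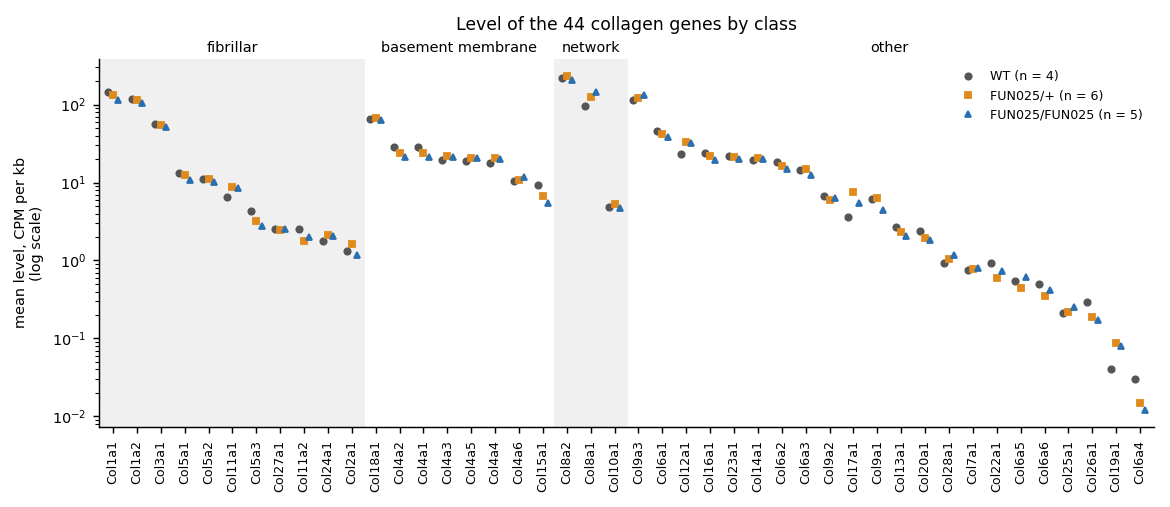
Mean level of each of the 44 collagen genes in WT, FUN025/+ and FUN025/FUN025 eyecups, in CPM per kb of exon on a log scale, ordered by level within each class. Col8a2, Col1a1, Col8a1, Col9a3 and Col1a2 stand above 100, and among the network collagens the Col8a1 points separate by genotype while those of Col8a2 lie close together.

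Each mutant genotype was compared with WT, and the mutant genotypes with each other, by edgeR's quasi-likelihood test with Benjamini-Hochberg adjustment over all genes tested and a threshold of 0.05. Both comparisons with WT use the same 4 WT libraries and are therefore not independent. Relative to WT, 2 collagens rose in FUN025/+ eyecups (Col8a1 and Col4a4), where 7.09% of all genes tested rose, and 6 fell (Col4a1, Col4a2, Col5a3, Col6a6, Col11a2 and Col22a1), where 6.61% of all genes fell. In FUN025/FUN025 eyecups 1 collagen rose (Col8a1; 7.03% of all genes) and 6 fell (Col4a1, Col4a2, Col5a3, Col11a2, Col15a1 and Col20a1; 7.02% of all genes). The libraries of 3 collagens did not overlap between FUN025/+ and WT (10.9% of all genes) and those of 8 did not overlap between FUN025/FUN025 and WT (14.8% of all genes). Without WT replicate 2, 1 collagen rose and 3 fell in FUN025/+, where 5.47% of all genes rose and 4.42% fell in that fit, and 1 rose and 6 fell in FUN025/FUN025 (6.09% and 4.91% of all genes).

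The median log2 fold change of the 42 collagens was -0.02 in FUN025/+ and -0.13 in FUN025/FUN025 relative to WT, beside medians over all genes of -0.0023 and -0.0071. Between libraries of 1 genotype the collagen median had an SD of 0.091 on the log2 scale. No collagen passed between FUN025/FUN025 and FUN025/+ (edgeR, 0 of 42), where 0.327% of all genes were higher and 0.195% were lower. DESeq2 called 0 collagens as well, where 0.501% of all genes were higher and 0.4% were lower. In that comparison the libraries of 1 collagen, Col22a1, did not overlap (1.12% of all genes). The median collagen log2 fold change between the mutant genotypes was -0.09.

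**Figure D2:**
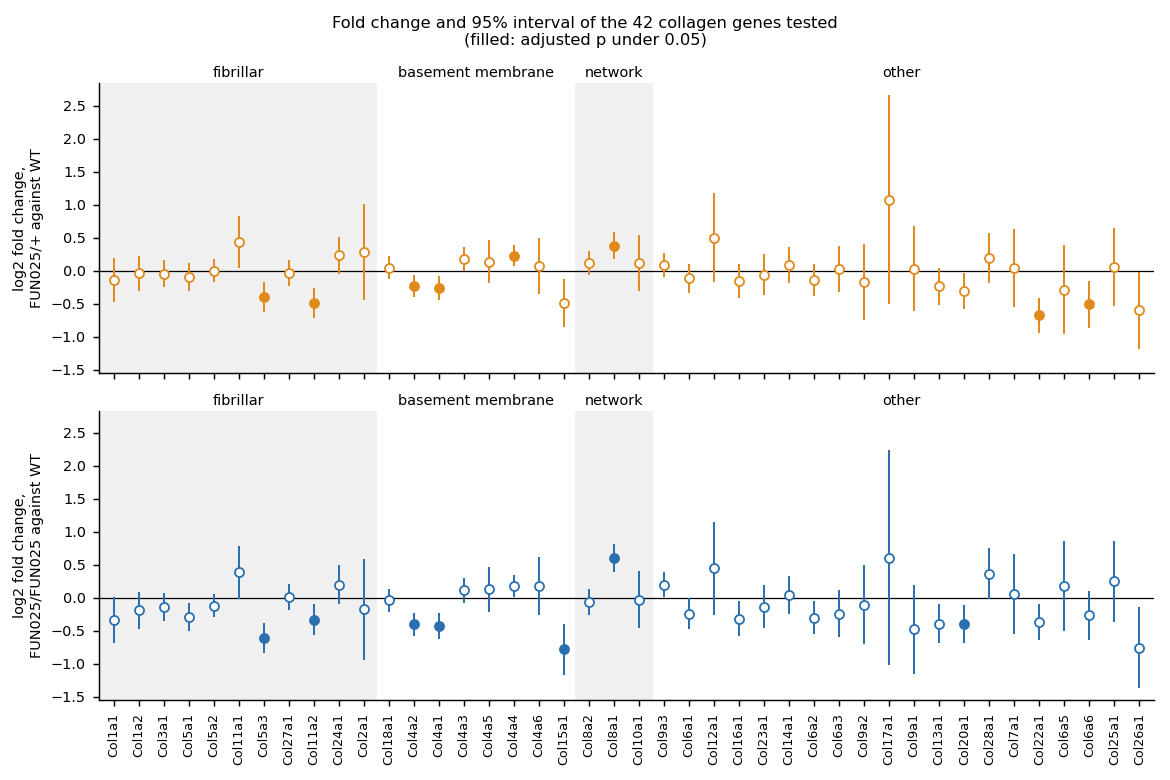
Log2 fold change against WT (points) and unadjusted 95% interval (lines) of the 42 collagen genes tested, by class, for FUN025/+ (upper panel) and FUN025/FUN025 (lower panel), with filled points where the adjusted p was under 0.05. Col8a1 is the filled point above 0 in both panels, joined in FUN025/+ by Col4a4, and Col17a1 has the widest intervals.

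The network-forming collagen Col8a1 rose in both mutant genotypes. Col8a1 (chr16:57624258-57754737) measured 891, 659, 775 and 660 CPM in the 4 WT libraries, from 852 to 1070 CPM with a median of 976 CPM in the FUN025/+ libraries, and 1081, 1180, 1244, 1020 and 1156 CPM in the FUN025/FUN025 libraries. Every FUN025/FUN025 library was above every WT library, whereas the lowest FUN025/+ library was below the highest WT library. Col8a1 was 1.30-fold higher in FUN025/+ (log2 fold change 0.38, SE 0.09, adjusted p = 0.00897, edgeR) and 1.52-fold higher in FUN025/FUN025 (log2 fold change 0.61, SE 0.09, adjusted p = 2.47e-04) than in WT. Both calls held in every alternative that was run, including without WT replicate 2 (log2 fold changes 0.33 and 0.56) and with all libraries thinned to the smallest total (0.38 and 0.61). Between the mutant genotypes Col8a1 differed by a log2 fold change of 0.23 (95% interval 0.06 to 0.40, adjusted p = 0.509).

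Col8a2, which encodes the other type VIII chain, did not pass the test in any comparison. Its libraries measured 1089, 841, 994 and 986 CPM in WT, 924 to 1192 CPM with a median of 1047 CPM in FUN025/+, and 894, 863, 901, 936 and 1094 CPM in FUN025/FUN025 eyecups. The 3 genotypes overlapped, and the 95% interval of the log2 fold change was -0.06 to 0.28 in FUN025/+ and -0.24 to 0.12 in FUN025/FUN025 relative to WT. Col10a1, the hypertrophic cartilage collagen of the same class, was at 15.2 ± 2.83 CPM (SD, n = 4) in WT and had log2 fold changes of 0.12 and -0.03.

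The ratio of the type VIII chains, each taken per kb, does not depend on library size. It can depend on GC content, which was 45.4% for Col8a1 and 59.0% for Col8a2, and the ratios were not recomputed with a GC offset. Col8a1 over Col8a2 was 0.469, 0.449, 0.447 and 0.384 in WT, 0.491 to 0.563 with a median of 0.523 in FUN025/+, and 0.693, 0.784, 0.791, 0.625 and 0.605 in FUN025/FUN025 eyecups. The 3 genotypes did not overlap with one another. The ratio was 1.20-fold higher in FUN025/+ than in WT (exact two-sided permutation test, p = 0.00952), 1.60-fold higher in FUN025/FUN025 than in WT (exact permutation p = 0.0159) and 1.33-fold higher in FUN025/FUN025 than in FUN025/+ (exact permutation p = 0.00433). Each is the smallest p these group sizes allow. Over the 27 tests made, of 9 chain pairs in 3 comparisons, each had an adjusted p of 0.0935 and missed the threshold. The ratio of Col1a1 over Col1a2, the type I chains, also did not overlap between FUN025/FUN025 and WT, at 1.1 ± 0.0672 (SD, n = 5) and 1.23 ± 0.0344 (n = 4; exact permutation p = 0.0159, adjusted p = 0.0935). RPE markers, whose 7 genes summed to 16460 to 20090 CPM in WT, 16350 to 21580 CPM in FUN025/+ and 16070 to 20470 CPM in FUN025/FUN025 libraries, overlapped between genotypes. By edgeR, 0 of 7 were called in either comparison with WT. Over all genes, 7.09% rose and 6.61% fell in FUN025/+, and 7.03% and 7.02% in FUN025/FUN025. In FUN025/FUN025 relative to FUN025/+, 6 of these 7 markers had a negative log2 fold change and 1 a positive one, with a median of -0.19. There 0 were called (0.327% of all genes higher and 0.195% lower). Within genotypes the deviations of the RPE marker sum had a Pearson's r of 0.61 with those of Col8a1 and 0.65 with those of Col8a2 over 15 libraries. The part of the RPE markers in the type VIII values was not tested.

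**Figure D3:**
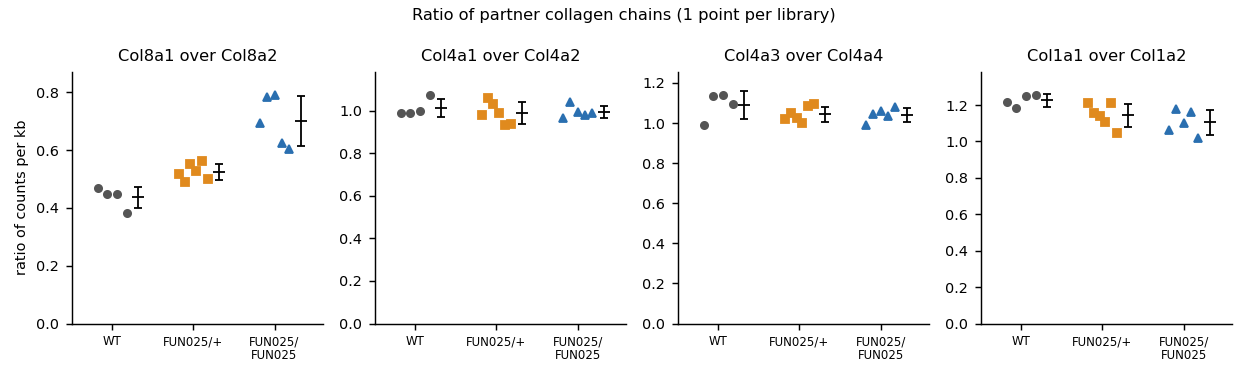
Ratio of partner chains in counts per kb for type VIII (Col8a1 over Col8a2), the type IV pairs and type I, with 1 point per library and the mean ± SD beside each genotype (n = 4, 6 and 5). The type VIII ratio separates into 3 levels by genotype, from 0.384 to 0.791 over all libraries, whereas Col4a1 over Col4a2 stays between 0.934 and 1.07.

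Among the basement membrane collagens, the 2 chains of the common type IV network fell and the chains of the specialised networks did not. Col4a1 (chr8:11198423-11312826) measured 202, 212, 224 and 217 CPM in WT, 152 to 208 CPM with a median of 177 CPM in FUN025/+, and 158, 168, 173, 147 and 148 CPM in FUN025/FUN025 libraries. All FUN025/FUN025 libraries were below all WT libraries, and the FUN025/+ libraries spanned both ranges. Relative to WT the log2 fold change of Col4a1 was -0.26 (SE 0.08, adjusted p = 0.0401, edgeR) in FUN025/+ and -0.43 (SE 0.09, adjusted p = 0.00292) in FUN025/FUN025 eyecups.

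Col4a2 (chr8:11312805-11449287), the partner in the trimer, gave nearly the same pattern. It measured 181, 190, 198 and 179 CPM in WT, 139 to 188 CPM with a median of 159 CPM in FUN025/+, and 144, 143, 155, 133 and 132 CPM in FUN025/FUN025 libraries. Again the FUN025/FUN025 and WT libraries did not overlap. The log2 fold change of Col4a2 was -0.23 (SE 0.07, adjusted p = 0.0348, edgeR) in FUN025/+ and -0.40 (SE 0.07, adjusted p = 0.00123) in FUN025/FUN025 relative to WT.

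For both genes the FUN025/FUN025 call held in every alternative run, and the FUN025/+ call did not. The FUN025/+ call was lost, among other settings, without WT replicate 2, 3 or 4 or FUN025/+ replicate 3, 4, 5 or 6, and for Col4a1 also without FUN025/FUN025 replicate 1, with an adjusted p (edgeR) of 0.0512 to 0.115 for Col4a1 and 0.0567 to 0.104 for Col4a2. An offset for GC content moved the FUN025/+ log2 fold change to -0.17 for Col4a1 and -0.12 for Col4a2, with adjusted p of 0.197 and 0.353 (edgeR). The FUN025/+ calls were also lost with only the 2 genotypes compared (adjusted p 0.0744 and 0.068), and that of Col4a1 with no low-count filter (0.0555).

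Col4a3, Col4a4, Col4a5 and Col4a6 encode the chains of specialised type IV networks. Col4a4 (chr1:82448423-82586849) measured 205, 171, 188 and 190 CPM in WT, 196 to 241 CPM with a median of 223 CPM in FUN025/+, and 197, 214, 235, 191 and 228 CPM in FUN025/FUN025 libraries, so all genotypes overlapped. It was higher in FUN025/+ than in WT by a log2 fold change of 0.23 (SE 0.07, adjusted p = 0.0349, edgeR), with 0.18 (adjusted p = 0.111) in FUN025/FUN025. That call was lost, among other settings, without WT replicate 2, 3 or 4 or FUN025/+ replicate 2, 3, 5 or 6, with an adjusted p (edgeR) of 0.05 to 0.107 after rounding. Col4a3, head to head with Col4a4 on chromosome 1, had log2 fold changes of 0.17 and 0.12, Col4a5 of 0.14 and 0.13, and Col4a6 of 0.08 and 0.18, with no adjusted p under the threshold.

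The type IV genes that lie head to head were also compared as ratios. Col4a1 over Col4a2 per kb ranged from 0.934 to 1.07 over the 15 libraries, Col4a3 over Col4a4 from 0.989 to 1.14, and Col4a5 over Col4a6, which are head to head on the X chromosome, from 1.71 to 2.28. In deviations from the genotype means over 15 libraries, Pearson's r was 0.91 for Col4a1 with Col4a2, 0.89 for Col4a3 with Col4a4, 0.96 for Col4a5 with Col4a6, 0.96 for Col1a1 with Col1a2 and 0.94 for Col6a1 with Col6a2, beside a median of 0.093 over all pairs of collagens. It was 0.87 for Col9a1 with Col9a2, 0.58 for Col8a1 with Col8a2, 0.50 for Col3a1 with Col1a1 and 0.47 for Col5a1 with Col5a2. These coefficients are a description, since the 2 genes of a pair are read from the same libraries and, for Col4a1 and Col4a2, overlapping exons.

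Col15a1 (chr4:47208161-47313167), which ties endothelial and muscle basement membranes to the surrounding matrix, had the lowest fold change of the class. It measured 54.6, 53.6, 48.4 and 82.5 CPM in WT, 33.4 to 54.2 CPM with a median of 43.8 CPM in FUN025/+, and 38.2, 30.6, 29.8, 41.7 and 34.3 CPM in FUN025/FUN025 libraries. The FUN025/FUN025 libraries were all below the WT libraries, of which replicate 4 was well above the rest. Col15a1 fell by 0.78 on the log2 scale (SE 0.17, adjusted p = 0.0101, edgeR) in FUN025/FUN025, a call that held in every alternative run, with -0.57 at its smallest without WT replicate 4. In FUN025/+ its log2 fold change was -0.49 (adjusted p = 0.064, edgeR), which passed without FUN025/+ replicate 2 (adjusted p = 0.0377) and by DESeq2 (adjusted p = 0.0162). Without WT replicate 4 the FUN025/+ value was -0.29 (adjusted p = 0.238, edgeR).

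Col18a1, the source of endostatin and the highest basement membrane collagen per length, was steady. Its libraries measured 443, 440, 493 and 446 CPM in WT, 420 to 540 CPM with a median of 462 CPM in FUN025/+, and 419, 445, 398, 530 and 424 CPM in FUN025/FUN025 eyecups. The genotypes overlapped, with 95% intervals of the log2 fold change of -0.11 to 0.21 and -0.20 to 0.13 relative to WT.

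Markers of endothelium, the cells around which much type IV collagen lies, moved with the falls of Col4a1, Col4a2 and Col15a1. All 7 endothelial markers had a negative log2 fold change in both comparisons with WT, and by the same test 2 fell in FUN025/+ (6.61% of all genes) and 6 in FUN025/FUN025 (7.02% of all genes). Their summed level was 1091 to 1289 CPM in WT, 863 to 1187 CPM in FUN025/+ and 779 to 969 CPM in FUN025/FUN025 libraries, and no marker was under 64.1 CPM in any library. Within genotypes, over 15 libraries, the deviations of the marker sum had a Pearson's r of 0.84 with those of Col4a1, 0.69 with Col4a2, 0.50 with Col15a1 and -0.58 with Col18a1, values that share library and depth. Outside the class it was 0.60 with Col5a3, 0.48 with Col20a1, 0.43 with Col8a1, -0.09 with Col22a1 and -0.30 with Col11a2. Col4a1, Col4a2 and Col15a1 were set against no other marker list, so these values are not shown to be particular to endothelium. The part of the endothelial markers in these collagen differences was not tested.

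**Figure D4:**
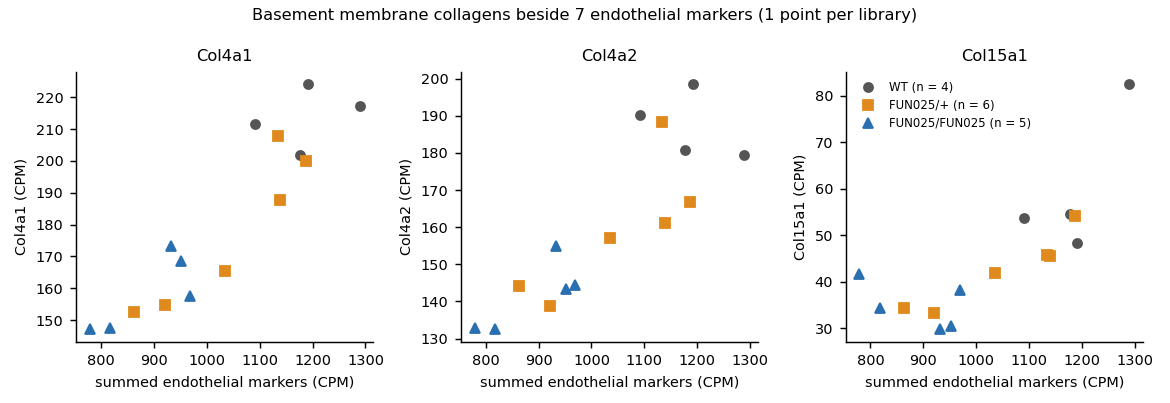
Col4a1, Col4a2 and Col15a1 (CPM, vertical axes) against the summed level of 7 endothelial markers (CPM, horizontal axes), with 1 point per library and axes that do not start at 0. FUN025/FUN025 libraries lie at 779 to 969 CPM of markers and WT libraries at 1091 to 1289 CPM, with the FUN025/+ libraries spread over both.

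Of the fibrillar collagens, 2 minor chains fell and the main fibril genes did not pass the test. Col5a3 (chr9:20770050-20815067), a type V chain that joins fibrils with type I collagen, measured 28.5, 25.3, 29.7 and 33.0 CPM in WT, 19.5 to 25.9 CPM with a median of 21.2 CPM in FUN025/+, and 22.1, 18.6, 15.98, 19.6 and 19.3 CPM in FUN025/FUN025 libraries. The FUN025/FUN025 libraries were all below the WT libraries, and 1 FUN025/+ library was above the lowest WT library. Relative to WT the log2 fold change of Col5a3 was -0.40 (SE 0.10, adjusted p = 0.0115, edgeR) in FUN025/+ and -0.60 (SE 0.10, adjusted p = 6.86e-04) in FUN025/FUN025. The FUN025/FUN025 call held in every alternative run, while the FUN025/+ call was lost, among other settings, without WT replicate 4 (adjusted p = 0.0626) and with the GC offset (adjusted p = 0.054). The endothelial markers moved with Col5a3 too, and their part in its fall was not tested.

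Col11a2 (chr17:34039437-34066685), a type XI chain best known from cartilage, fell in both mutant genotypes. It measured 19.1, 17.1, 15.9 and 16.8 CPM in WT, 9.70 to 14.9 CPM with a median of 12.3 CPM in FUN025/+, and 14.97, 12.9, 13.7, 14.2 and 12.5 CPM in FUN025/FUN025 libraries. Every mutant library was below every WT library. The log2 fold change of Col11a2 was -0.50 (SE 0.10, adjusted p = 0.00334, edgeR) in FUN025/+, a call that held in every alternative run, and -0.33 (SE 0.10, adjusted p = 0.0423) in FUN025/FUN025. The latter was lost, among other settings, with no low-count filter (adjusted p = 0.0508), with the GC offset (log2 fold change -0.23, adjusted p = 0.192) and without any 1 WT library, FUN025/+ replicate 3 or FUN025/FUN025 replicate 2, 3, 4 or 5, with an adjusted p (edgeR) of 0.0543 to 0.111. Of 7 cartilage markers, 5 were tested and 0 were called in either comparison with WT. Over all genes, 7.09% rose and 6.61% fell in FUN025/+, and 7.03% and 7.02% in FUN025/FUN025.

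Col1a1 (chr11:94936224-94953042), the main chain of type I collagen and the highest fibrillar collagen per length, measured 1131, 726, 1046 and 914 CPM in WT, 699 to 1035 CPM with a median of 845 CPM in FUN025/+, and 797, 1010, 688, 651 and 637 CPM in FUN025/FUN025 libraries. The genotypes overlapped, and the log2 fold changes were -0.14 and -0.34 with an adjusted p of 0.569 and 0.165 (edgeR). The FUN025/FUN025 value passed when FUN025/FUN025 replicate 2, the highest of its group, was left out (log2 fold change -0.46, adjusted p = 0.0397). Its partner Col1a2 had log2 fold changes of -0.04 and -0.19, and Col3a1, which shares fibrils with type I collagen in compliant tissue, of -0.04 and -0.14. Together these 3 genes made up 28.0% to 35.7% of all collagen counts.

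Fibroblast markers varied along with type I collagen between libraries of 1 genotype, with a Pearson's r of 0.76 for Col1a1 and 0.87 for Col1a2 over 15 libraries. The 7 fibroblast markers summed to 3635 to 4627 CPM in WT, 3520 to 3926 CPM in FUN025/+ and 3038 to 3873 CPM in FUN025/FUN025 libraries, with 0 called in either comparison with WT. Over all genes, 7.09% rose and 6.61% fell in FUN025/+, and 7.03% and 7.02% in FUN025/FUN025. The part of the fibroblast markers in the collagen values was not tested. Of the other fibrillar collagens, Col5a1 did not overlap between FUN025/FUN025 and WT but missed the threshold (log2 fold change -0.29, adjusted p = 0.0552, edgeR). Col11a1, the partner of Col11a2, had positive log2 fold changes of 0.43 and 0.39, with 95% intervals of 0.05 to 0.81 and 0.00 to 0.78, and adjusted p of 0.123 and 0.179.

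**Figure D5:**
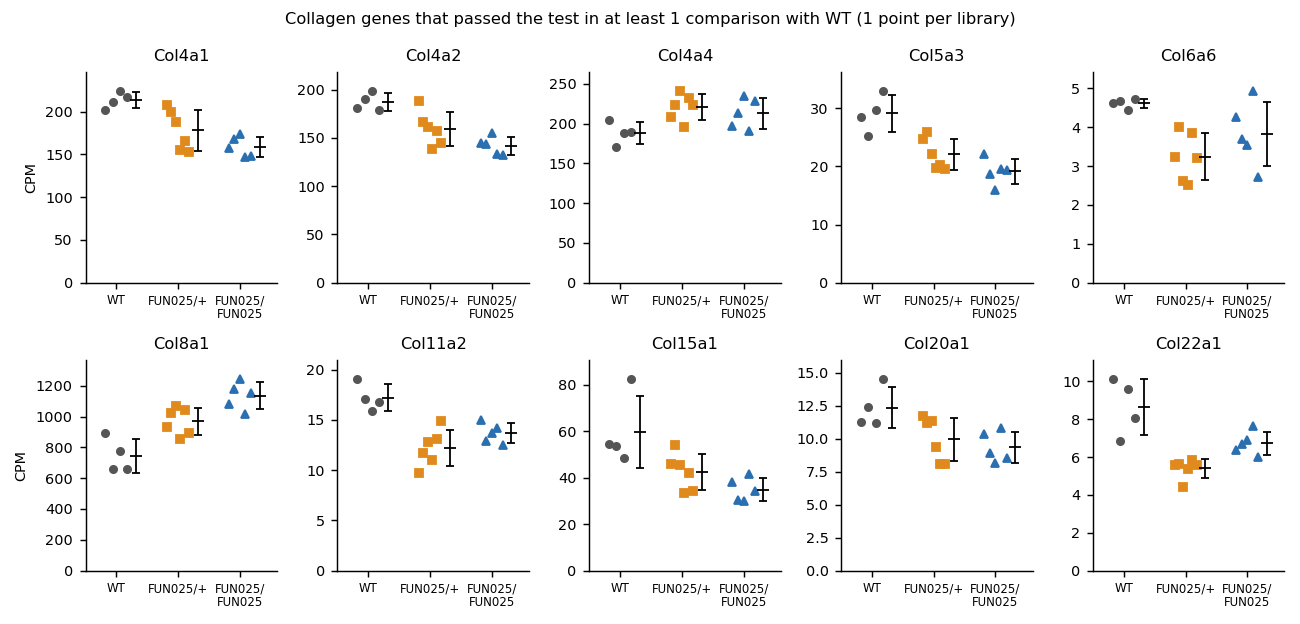
CPM of the 10 collagen genes that passed the test in at least 1 comparison with WT, with 1 point per library and the mean ± SD beside each genotype (n = 4 WT, 6 FUN025/+ and 5 FUN025/FUN025), on axes that start at 0. Col8a1 climbs from 659 CPM in the lowest WT library to 1244 CPM in the highest FUN025/FUN025 library, and Col4a1, Col4a2, Col5a3 and Col15a1 have all FUN025/FUN025 points below the WT points.

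The other collagens that passed were all lowly expressed. Col22a1 (chr15:71795795-72034227), a fibril-associated collagen of tissue junctions such as that of muscle and tendon, measured 10.1, 6.83, 9.59 and 8.06 CPM in WT, 4.42 to 5.83 CPM with a median of 5.59 CPM in FUN025/+, and 6.37, 6.70, 6.91, 7.64 and 5.99 CPM in FUN025/FUN025 libraries. The FUN025/+ libraries were below all libraries of both other genotypes. Col22a1 fell by 0.68 on the log2 scale (SE 0.12, adjusted p = 0.00125, edgeR) in FUN025/+, a call that held in every alternative run. In FUN025/FUN025 the log2 fold change was -0.36 (adjusted p = 0.0599, edgeR), which passed without WT replicate 2 (-0.45, adjusted p = 0.0261), and between the mutant genotypes it was 0.31 (adjusted p = 0.587).

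Of 7 striated muscle markers, 1, Acta1, fell in each comparison with WT (6.61% and 7.02% of all genes fell), and all 7 had negative log2 fold changes. Their sums overlapped between genotypes, at 2907 to 6225 CPM in WT, 1625 to 4673 CPM in FUN025/+ and 2735 to 3629 CPM in FUN025/FUN025 libraries. Their deviations had a Pearson's r of 0.30 with those of Col22a1 over 15 libraries, and their part in the Col22a1 difference was not tested.

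Col20a1 (chr2:180986535-181018363), another fibril-associated collagen, measured 11.3, 12.4, 11.2 and 14.5 CPM in WT, 8.08 to 11.7 CPM with a median of 10.3 CPM in FUN025/+, and 10.4, 8.93, 8.11, 10.8 and 8.53 CPM in FUN025/FUN025 libraries. The FUN025/FUN025 libraries were below the WT libraries by a narrow margin. The log2 fold change in FUN025/FUN025 was -0.40 (SE 0.13, adjusted p = 0.0482, edgeR). This call was lost, among other settings, without WT replicate 2, 3 or 4, FUN025/+ replicate 2, 3 or 4, or FUN025/FUN025 replicate 1, 2, 3 or 5 (adjusted p 0.0518 to 0.178, edgeR), with the GC offset (adjusted p = 0.127) and after thinning (adjusted p = 0.0687).

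Col6a6 (chr9:105687809-105828160), a beaded filament chain that shares 4.69% of its sequence stretches with other genes, measured 4.62, 4.68, 4.45 and 4.73 CPM in WT, 2.52 to 4.02 CPM with a median of 3.22 CPM in FUN025/+, and 4.27, 3.69, 3.53, 4.93 and 2.72 CPM in FUN025/FUN025 libraries. Only the FUN025/+ libraries were all below WT, with a log2 fold change of -0.51 (SE 0.16, adjusted p = 0.0435, edgeR). The call was lost, among other settings, without any 1 WT library, FUN025/+ replicate 1, 3, 4 or 6, or FUN025/FUN025 replicate 1, 2 or 3 (adjusted p 0.0508 to 0.109, edgeR), as well as with the GC offset (adjusted p = 0.077), with only the 2 genotypes compared (0.0502) and with no low-count filter (0.0645).

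The highest collagens per length in the remaining groups did not pass in any comparison. Col6a1, a chain of the common type VI filament, measured 225, 169, 208 and 200 CPM in WT, 157 to 209 CPM with a median of 186 CPM in FUN025/+, and 192, 194, 166, 149 and 148 CPM in FUN025/FUN025 libraries, which overlapped. Col9a3, a chain of type IX collagen that coats type II fibrils in cartilage and vitreous, measured 456, 375, 420 and 513 CPM in WT, 423 to 524 CPM with a median of 465 CPM in FUN025/+, and 496, 474, 535, 472 and 550 CPM in FUN025/FUN025 libraries. Per length it was 123 over all libraries, whereas its partners Col9a1 and Col9a2 were at 5.69 and 6.35.

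The genotypes overlapped for Col9a3, with a log2 fold change of 0.20 in FUN025/FUN025 (adjusted p = 0.123, edgeR) that passed without WT replicate 4 (0.28, adjusted p = 0.0386) and with the GC offset (0.30, adjusted p = 0.0182). Of its exon bases 6.07% overlap Tcfl5 on the opposite strand, and without a known strand setting reads from that stretch cannot be told apart. Col23a1, a transmembrane collagen, measured 111, 138, 142 and 110 CPM in WT, 98.2 to 167 CPM with a median of 114 CPM in FUN025/+, and 112, 120, 101.2, 133 and 106 CPM in FUN025/FUN025 libraries. Col28a1, a collagen of peripheral nerve, measured 3.95, 4.47, 5.20 and 4.56 CPM in WT, 4.37 to 6.17 CPM with a median of 5.11 CPM in FUN025/+, and 6.57, 7.24, 5.54, 6.41 and 3.45 CPM in FUN025/FUN025 libraries. Both overlapped between all genotypes, although the Col28a1 log2 fold change of 0.37 in FUN025/FUN025 passed without FUN025/FUN025 replicate 5 (0.50, adjusted p = 0.0338, edgeR).

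A few collagens varied more within a genotype than between genotypes. Col17a1, a hemidesmosome protein of surface epithelium, measured 10.2, 11.3, 51.2 and 13.0 CPM in WT, 9.13 to 124 CPM with a median of 23.3 CPM in FUN025/+, and 43.0, 29.7, 21.7, 37.8 and 32.03 CPM in FUN025/FUN025 libraries. Its deviations had a Pearson's r of 0.98 over 15 libraries with those of 5 cornea and conjunctiva epithelium markers, which summed to 258 to 3849 CPM, and its log2 fold changes of 1.07 and 0.61 had SEs of 0.72 and 0.74. Col12a1, a fibril-associated collagen of dense connective tissue, ranged from 175 to 575 CPM among WT libraries alone, with log2 fold changes of 0.50 (SE 0.30) and 0.45 (SE 0.31).

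The median GC content of the collagen transcripts was 54.5%, beside 49.1% for protein-coding genes. It was 58.7% for the 6 collagens that fell in FUN025/+ and 59.0% for the 6 that fell in FUN025/FUN025, while of the collagens that rose Col8a1 was at 45.4% and Col4a4 at 51.2%. The ranges came close, since Col6a6 and Col22a1, which fell in FUN025/+, were at 52.7%. With an offset for GC content, 2 collagens rose (Col8a1 and Col4a4) and 2 fell (Col11a2 and Col22a1) in FUN025/+, where 5.4% of all genes rose and 4.38% fell with the same offset. In FUN025/FUN025 relative to WT, 2 rose (Col8a1 and Col9a3) and 4 fell (Col4a1, Col4a2, Col5a3 and Col15a1), where 5.62% of all genes rose and 4.76% fell with the offset.

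Collagen chains pass through a line of partners: hydroxylases and chaperones in the endoplasmic reticulum, proteases and cross-linking enzymes outside the cell, and receptors and matrix proteins that bind the finished collagen. Of 60 such genes listed, 59 were tested. Relative to WT, 2 rose and 2 fell in FUN025/+ eyecups, and 3 rose and 7 fell in FUN025/FUN025 eyecups, with 1 higher and 0 lower in FUN025/FUN025 than in FUN025/+ (edgeR; 0.327% and 0.195% of all genes). Over all genes tested the shares relative to WT were 7.09% higher and 6.61% lower in FUN025/+ and 7.03% and 7.02% in FUN025/FUN025. Their median log2 fold changes relative to WT were -0.03 and -0.04.

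Among the folding genes, P4ha2, a prolyl 4-hydroxylase subunit, fell in both genotypes (log2 fold changes -0.43 and -0.39 in FUN025/+ and FUN025/FUN025 relative to WT), as did Ppib, a prolyl isomerase of the collagen folding complex (-0.23 in each). Serpinh1, which encodes the collagen chaperone HSP47, fell in FUN025/FUN025 (-0.21, adjusted p = 0.0229, edgeR), with -0.17 (adjusted p = 0.0582) in FUN025/+. Among the processing genes, Pcolce, an enhancer of the protease that removes the C-terminal propeptide of fibrillar procollagens, measured 484 ± 32.4 CPM (SD, n = 4) in WT, 463 ± 23.9 CPM (n = 6) in FUN025/+ and 655 ± 52.8 CPM (n = 5) in FUN025/FUN025 eyecups.

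Every FUN025/FUN025 library was above all others for Pcolce, a log2 difference of 0.44 from WT (adjusted p = 1.97e-04, edgeR) and of 0.50 from FUN025/+ (adjusted p = 7.49e-05). Bmp1, the protease it enhances, fell in FUN025/FUN025 (log2 fold change -0.27, adjusted p = 0.0248, edgeR), as did Loxl4, a lysyl oxidase (-0.73, adjusted p = 0.0152). The collagen receptor genes Itgb1 (log2 fold changes 0.22 and 0.20) and Ddr2 (0.25 and 0.26) rose in both genotypes. Of the basement membrane partners, Lamb2 (-0.17) and Hspg2 (-0.29), which encodes perlecan, fell in FUN025/FUN025.

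Of these calls, those of Pcolce in both comparisons, Loxl4 in FUN025/FUN025 and P4ha2 and Itgb1 in FUN025/+ held in every alternative run. Without WT replicate 4 the calls of Ppib in both genotypes, of Ddr2 in both genotypes, and of P4ha2, Itgb1, Bmp1, Serpinh1, Hspg2 and Lamb2 in FUN025/FUN025 were lost. Other single libraries ended the calls of P4ha2 (WT replicate 2 or 3), Itgb1 (WT replicate 2), Ddr2 in FUN025/+ (WT replicate 3 or FUN025/+ replicate 3), Bmp1 (FUN025/FUN025 replicate 2, 4 or 5), Serpinh1 (WT replicate 3 or FUN025/FUN025 replicate 3 or 5) and Hspg2 (WT replicate 1 or 3 or FUN025/FUN025 replicate 3, 4 or 5). The Lamb2 call was lost in 15 of 24 alternatives, among them without WT replicate 1 or 3, FUN025/+ replicate 2, 3 or 4, or FUN025/FUN025 replicate 1, 3, 4 or 5. Where a left-out library ended these calls, the adjusted p (edgeR) was 0.0514 to 0.0618 for P4ha2, 0.0511 to 0.068 for Itgb1, 0.0549 to 0.118 for Bmp1, 0.0548 to 0.0854 for Serpinh1, 0.061 to 0.0802 for Hspg2 and 0.0515 to 0.142 for Lamb2. For Ppib it was 0.0658 in FUN025/+ and 0.0704 in FUN025/FUN025, and for Ddr2 0.0523 to 0.0902 and 0.0797. The GC offset moved the FUN025/FUN025 log2 fold change of Lamb2 to -0.066 (adjusted p = 0.472, edgeR), of Hspg2 to -0.18 (adjusted p = 0.205) and of Serpinh1 to -0.12 (adjusted p = 0.173), which ended these calls. It also ended those of Bmp1 (adjusted p = 0.103, edgeR), Itgb1 (0.0785) and Ddr2 (0.0503) in FUN025/FUN025 and of Ddr2 (0.064) in FUN025/+.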

How the data were processed

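The authors deposited whole-number read counts per Ensembl gene, without normalization, for each of the 15 libraries. The submitters' processing notes name FastQC 0.11.8, Trimmomatic 0.39, HISAT2 2.1.0, SAMtools, featureCounts 2.0.0 and GRCm38. The annotation release, the strand setting and the treatment of reads shared by genes are not given in the sources used here. Libraries were grouped by the genotype in their labels. Nothing labels batches, and 1 library was made per mouse, so p-values measure the spread between these mice.

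Symbols, exon lengths, GC content and gene positions were read from the GENCODE M21 annotation (GRCm38), in which 55240 of the 55421 genes of the files were found. The 15% of genes with the lowest variance and genes of low count (filterByExpr) were removed, counts were scaled by TMM (factors 0.976 to 1.02), and all 15 libraries entered 1 robust quasi-likelihood fit in edgeR 4.0.16 (R 4.3.3). CPM uses the scaled totals, and CPM per kb divides by the union of annotated exons, which counts exons a tissue may not use. Shared sequence was measured as the share of 31-base stretches that occur in another gene. No pair of libraries within a genotype matched within sampling noise. Values in every WT and FUN025/FUN025 library, and the lowest, median and highest of the 6 FUN025/+ libraries, are given for collagens that passed in any comparison and for the highest per length in each class. The collagens, the partner and marker lists and their classes were chosen with earlier results of these data known. Alternatives were RLE scaling, other filters, DESeq2 1.42.0, fits with the compared genotypes only, a replicate block, a GC offset, thinning to the smallest total and leaving out each library.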

Additional observations from a re-analysis of the deposited data

Results flagged for a closer look

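In 93 groups of libraries (17 collagens, the class sums and the chain ratios, in 3 genotypes), 5 had a library that stood apart from the rest of its genotype by Dixon's criterion, and chance flags about 1 in 20 groups. Col18a1 was at 493 CPM in WT replicate 3, above 440 to 446 CPM in the other WT libraries. Col22a1 was at 4.42 CPM in FUN025/+ replicate 3, below 5.39 to 5.83 CPM in the others. The ratio of Col4a1 over Col4a2 per kb was 1.07 in WT replicate 4, above 0.988 to 1.00 in the others. The ratio of Col5a1 over Col5a2 was 1.25 in FUN025/+ replicate 1, above 1.02 to 1.11 in the others. The ratio of Col3a1 over Col1a1 was 0.334 in FUN025/FUN025 replicate 2, below 0.465 to 0.492 in the others.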

How the results depend on the processing

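The collagen counts and medians, the fold changes of the 17 collagens given by library and, as a check added after seeing the data, those of the partner genes called were recomputed under 24 alternatives, and the chain ratios and marker sums were not. None of the called fold changes among these changed sign. The median collagen fold changes moved from their reported values by less than the SD between libraries, over log2 values of -0.065 to 0.027 for FUN025/+ against WT, -0.15 to -0.066 for FUN025/FUN025 against WT and -0.13 to -0.073 for FUN025/FUN025 against FUN025/+. In FUN025/+ against WT, the 6 collagens called lower became 3 with only the genotypes compared, 2 with the replicate block and 2 with the GC offset, and 2 to 7 when 1 library was left out (2 without WT replicate 4, and 3 without WT replicate 2 or 3 or FUN025/+ replicate 3, 4 or 6). The 2 called higher became 1 with the replicate block and 1 to 3 when 1 library was left out (1 without WT replicate 2, 3 or 4 or FUN025/+ replicate 2, 3, 5 or 6). In FUN025/FUN025 against WT, the 1 called higher became 2 with the GC offset and 1 to 2 when 1 library was left out (2 without WT replicate 4 or FUN025/FUN025 replicate 5), and the 6 called lower became 10 by DESeq2 and 4 to 7 when 1 library was left out. Of all genes, the share called lower in FUN025/+ was 4.73% with only the genotypes compared, 5.14% with the block, 4.38% with the GC offset and 3.01% to 6.9% when 1 library was left out (3.01% without WT replicate 4), beside 6.61%. The share called higher in FUN025/+ was 5.45% with the block and 4.47% to 7.28% when 1 library was left out, beside 7.09%. In FUN025/FUN025 the share called higher was 5.62% with the GC offset and 4.52% to 7.3% when 1 library was left out, beside 7.03%. The share called lower in FUN025/FUN025 was 7.99% by DESeq2 and 3.41% to 7.18% when 1 library was left out, beside 7.02%. Between the mutant genotypes all alternatives called 0 collagens, where 0.199% to 0.501% of all genes were higher and 0.106% to 0.4% were lower. The calls of Col8a1 in both comparisons with WT, of Col11a2 and Col22a1 in FUN025/+ and of Col4a1, Col4a2, Col5a3 and Col15a1 in FUN025/FUN025 held in all 24. Of the 24, the fit with no variance filter tested the same 18979 genes as the main fit and repeated its calls, so it was no separate check. The replicate block also ended the FUN025/+ calls of Col4a1 (adjusted p 0.0793), Col4a2 (0.0626), Col4a4 (0.0768), Col5a3 (log2 fold change -0.35, 0.0556) and Col6a6 (0.13), the FUN025/FUN025 calls of Col11a2 (0.0648) and Col20a1 (0.0912) and, among partner genes, those of Serpinh1 (0.0562) and Lamb2 (0.103). Among uncalled collagens the GC offset turned the log2 fold change to 0.012 for Col23a1 in FUN025/+ and to 0.043 for Col8a2 and 0.071 for Col18a1 in FUN025/FUN025, relative to WT. With 1 library left out it was -0.17 to 0.0075 for Col23a1 in FUN025/+ and -0.10 to 0.0101 for Col18a1 in FUN025/FUN025, and -0.13 to 0.05 for Col23a1 between the mutant genotypes. The cause of the changes was not tested. Same-numbered mice are different animals, and the deviations of same-numbered libraries had correlations of -0.38 to 0.13, so the numbers were not taken as pairs. Precision did not follow the level of a gene alone. In FUN025/+ relative to WT, the SE of the log2 fold change was 0.16 for Col6a6, at under 5 CPM. It was 0.30 for Col12a1, at 175 to 599 CPM in the same libraries. Depth cannot be told apart from genotype, and sex was not tested.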
